A study of Mus musculus with 12 samples.

Results

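The 10 genes described here, E2f5, E2f3, Ccne2, Ccnd1, Cdk6, Cdc25a, Met, Axl, Sirt1 and Bcl2, are reported targets of the microRNAs miR-34 and miR-449. They were followed through every probe set that the platform annotation ties to 1 of these symbols, which gave 25 of the 45037 probe sets tested and 10 of 18193 genes. E2f5, Ccnd1, Cdk6 and Cdc25a had 3 probe sets each, E2f3, Met and Axl had 2, Bcl2 had 5, and Ccne2 and Sirt1 had 1. A probe set is the group of short oligonucleotides on the array that reads 1 transcript region.

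The arrays carried RNA of C3H10T1/2, a mouse embryonic line of fibroblast-like mesenchymal cells. Cells had been transfected, in 4 groups of 3 arrays, with LNA-antimicroRNA-140, LNA-antimicroRNA-449, siRNA-140 or siRNA-96, where LNA (locked nucleic acid) oligonucleotides block a microRNA and the siRNA agents supply one. The labels state no time, dose or untreated group for these samples, and do not give the origin of the replicates, so p-values measure the spread among these samples, which may be technical. Bulk RNA was measured, so fewer cells that express a gene and less of its RNA per cell cannot be told apart. In the design antimicroRNA-449 is the control of antimicroRNA-140, and siRNA-96 that of siRNA-140. The question for the 10 genes is whether they read higher where miR-449 was blocked.

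The miR-34 and miR-449 microRNAs form a family because they share a seed, the stretch near the 5′ end through which a microRNA pairs with sites in messenger RNAs and lowers them. miR-34 is induced by p53 and slows the cell cycle, and miR-449 is best known from multiciliated epithelial cells. The reported targets lie in 3 groups of function: the entry into S phase (E2F factors, cyclins and their kinases), receptor tyrosine kinases, and survival or deacetylation.

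The mature sequences are shown to set the family beside the other agents of the study; seeds (bases 2 to 8) are in capitals and all sequences are those of RefSeq on GRCm38.p6, read 5′ to 3′.
miR-34a-5p: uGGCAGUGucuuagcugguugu
miR-34b-5p: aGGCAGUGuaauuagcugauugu
miR-449a-5p: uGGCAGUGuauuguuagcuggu
miR-449c-5p: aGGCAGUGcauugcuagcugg
miR-96-5p: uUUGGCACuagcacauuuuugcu
miR-140-3p: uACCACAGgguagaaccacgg
The first 4 share the seed GGCAGUG. The family members miR-34c-5p and miR-449b, and the arm miR-140-5p, are named only, since they were not among the sequences found. The seed of miR-140-5p was therefore not compared, and siRNA-140 may carry either arm of miR-140. Position by position from the 5′ end, miR-34a-5p has the base of miR-449a-5p at 15 of 22 positions, miR-449c-5p at 18 of 21 and miR-34b-5p at 10 of 22. The site in a messenger RNA that pairs with this seed reads CACTGCC. miR-96-5p (seed UUGGCAC) and miR-140-3p (seed ACCACAG) have other seeds, so neither siRNA agent shares the seed of the family if it carries these sequences; the labels do not give the sequences of the agents. The microRNAs miR-449a and miR-449c lie on chromosome 13, at chr13:113037549-113037570 and chr13:113036008-113036028 on the plus strand, miR-34a at chr4:150068473-150068494 on the plus strand and miR-34b at chr9:51103610-51103632 on the minus strand.

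Values are log2 expression made with RMA, so a difference of 1 is a doubling. Array medians were 4.32 to 4.38 in the LNA arrays and 3.95 to 4.02 in the siRNA arrays, so the experiments were tested apart, each on its own 6 arrays with limma. Of the 11 mesenchymal markers looked for, 10, all but Thy1, lay above the array median on average, with Col1a1, Col1a2 and Vim among the brightest probe sets, while 5 of 7 epithelial, 4 of 5 endothelial, 3 of 5 muscle and all 3 measured bone markers lay below it. Only 2 of 6 blood, 1 of 4 measured fat and 1 of 5 cartilage markers lay below it, and Col2a1, a cartilage collagen, stood at the 99.4th percentile, Sox9 at the 93.9th, Pparg at the 78.0th and Cd14 at the 76.4th. Mature microRNAs are not read by these arrays. Cdc20b, the gene that hosts the miR-449 cluster, read 2.72 to 2.83 in the LNA arrays and 2.30 to 2.45 in the siRNA arrays, on average at the 17.6th percentile of the probe sets of an array. All 6 measured genes of multiciliated cells lay below the array median on average, Foxj1, their master regulator, at the 39.6th percentile. Wwp2, the host gene of miR-140, read 9.70 to 9.87 in the LNA arrays.

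None of the 10 genes read higher with antimicroRNA-449 beyond the error of the arrays. limma called 0 of the 25 probe sets at a Benjamini-Hochberg adjusted p under 0.05, where 0% of all 45037 probe sets were called, and 0 of 25 had an unadjusted p under 0.05, against 4.77% of all. With the brightest probe set of each gene, 3 genes lay higher and 7 lower with antimicroRNA-449, with a median difference of -0.02, beside a median of 0.0033 over all 18193 genes, of which 50.8% lay higher. Of all 25 probe sets, 12 lay higher and 13 lower, from -0.26 (Ccne2) to 0.27 (a dim probe set of Bcl2). Groups of 3 arrays did not overlap for 1 probe set on the higher side, where 4.34% of all probe sets were so placed, and for 1 on the lower side, against 4.06% of all.

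**Figure D1:**
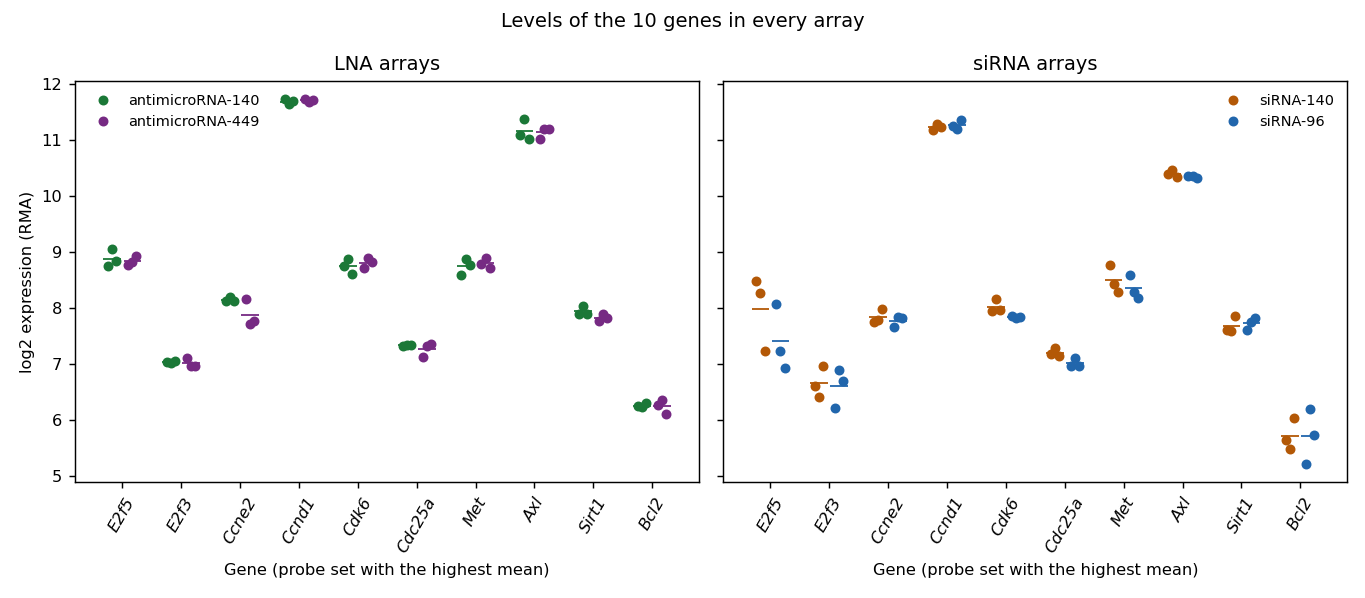
Log2 expression (RMA, vertical axis) of the 10 genes, each by its probe set with the highest mean, in all 12 arrays; points are arrays, short lines are group means (n = 3), LNA arrays are on the left and siRNA arrays on the right. The LNA groups overlap for every gene, Ccne2 stands lower in 2 of 3 antimicroRNA-449 arrays, and E2f5 ranges from 6.93 to 8.48 over the siRNA arrays.

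Among the E2F factors, E2f5, a repressor-type member that acts with pocket proteins, read 8.75, 9.06 and 8.84 with antimicroRNA-140 and 8.77, 8.82 and 8.93 with antimicroRNA-449. The groups overlapped, and the difference (antimicroRNA-449 minus antimicroRNA-140, here and below) was -0.04 ± 0.10 (standard error, SE; 95% interval -0.26 to 0.18; limma adjusted p = 0.996). Its other probe sets gave 0.04 and 0.05. E2f3, an activator of S phase genes, read 7.04, 7.03 and 7.05 with antimicroRNA-140 against 7.12, 6.96 and 6.97 with antimicroRNA-449, with 1 antimicroRNA-449 array above and 2 below all of the antimicroRNA-140 arrays. Its difference was -0.02 ± 0.07, and the dimmer E2f3 probe set gave -0.01 ± 0.10.

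Ccne2 encodes cyclin E2, which with Cdk2 drives the start of DNA replication. It read 8.13, 8.20 and 8.12 with antimicroRNA-140, and 8.17, 7.71 and 7.78 with antimicroRNA-449. Replicates 2 and 3 of antimicroRNA-449 lay below all antimicroRNA-140 arrays and replicate 1 lay among them. The mean was 8.15 ± 0.04 (SD, n = 3) with antimicroRNA-140 and 7.89 ± 0.25 (n = 3) with antimicroRNA-449, a difference of -0.26 ± 0.12 (SE; 95% interval -0.53 to 0.01; limma adjusted p = 0.974), opposite in sign to the release of a target. Over the 6 LNA arrays the SD of Ccne2, 0.21, lay at the 92.6th percentile of all probe sets. Replicate 1 of antimicroRNA-449 was also the LNA array with the highest mean of the 18S ribosomal RNA controls. Its mean was 10.2, against 5.92 to 6.75 in the other LNA arrays. Over all probe sets, the array most like it was antimicroRNA-140 replicate 3. Replicates 2 and 3 of antimicroRNA-449 were also most like an antimicroRNA-140 array, so this likeness does not set replicate 1 apart. Without antimicroRNA-449 replicate 1, the Ccne2 difference was -0.41 ± 0.08 (limma adjusted p = 0.628). The brightest probe sets then split into 5 higher and 5 lower, with a median of 0.0025 and 0 calls. Unadjusted p-values under 0.05 then went from 0 to 3 of the 25 probe sets, against 7.72% of all probe sets: Ccne2 (limma unadjusted p = 0.00112), lower with antimicroRNA-449, and dim probe sets of Bcl2 (0.37 ± 0.12, unadjusted p = 0.0175) and Axl (0.28 ± 0.10, unadjusted p = 0.0301), higher with it. In a fit of all 12 arrays, Ccne2 (unadjusted p = 0.0485) and that Bcl2 probe set (unadjusted p = 0.0305) were under 0.05, with limma adjusted p-values of 1. At the 3 probe sets, antimicroRNA-449 replicate 1 held the value of its group closest to the antimicroRNA-140 mean. The p-values without it therefore support no difference. The part of that array in the other differences was not tested further.

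Ccnd1, the D-type cyclin that mitogens induce, read 11.73, 11.64 and 11.70 with antimicroRNA-140 and 11.73, 11.69 and 11.72 with antimicroRNA-449. These values span less than 0.1, the difference was 0.02 ± 0.07 (interval -0.13 to 0.18), and the other Ccnd1 probe sets gave -0.06 ± 0.07 and 0.03 ± 0.07. Cdk6, the kinase partner of the D-type cyclins, read 8.75, 8.88 and 8.61 against 8.71, 8.90 and 8.82, a difference of 0.06 ± 0.09 (interval -0.15 to 0.27). Its second probe set gave 0.07 ± 0.09, and its dim one -0.08 ± 0.08. Cdc25a, the phosphatase that activates Cdk2, read 7.33, 7.34 and 7.34 with antimicroRNA-140 and 7.13, 7.33 and 7.37 with antimicroRNA-449. The low array there is replicate 1. The difference was -0.06 ± 0.08, and the second Cdc25a probe set, at 7.28, 7.30 and 7.29 against 7.26, 7.23 and 7.16, gave -0.07 ± 0.07. This was the 1 probe set whose antimicroRNA-449 arrays all lay below the antimicroRNA-140 arrays.

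Of the receptor tyrosine kinases, Met, the receptor of hepatocyte growth factor, read 8.59, 8.88 and 8.77 with antimicroRNA-140 and 8.79, 8.89 and 8.72 with antimicroRNA-449. The difference was 0.05 ± 0.09 (interval -0.16 to 0.27), and the dimmer Met probe set gave -0.13 ± 0.10, so the signs differed. Axl, the receptor of Gas6, read 11.10, 11.37 and 11.02 against 11.02, 11.20 and 11.20, a difference of -0.02 ± 0.11 (interval -0.26 to 0.22). Its other probe set lay on average at the 3.47th percentile of the arrays, near the floor of the values, and gave 0.19 ± 0.11.

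Sirt1, an NAD-dependent deacetylase that acts on p53, read 7.89, 8.04 and 7.90 with antimicroRNA-140 and 7.78, 7.90 and 7.82 with antimicroRNA-449. The groups overlapped, and the difference was -0.11 ± 0.08 (interval -0.28 to 0.06; limma adjusted p = 0.974). Bcl2, which protects cells from apoptosis, read 6.25, 6.23 and 6.31 against 6.28, 6.36 and 6.12, a difference of -0.01 ± 0.08. Its next probe sets gave 0.00 ± 0.07 and -0.04 ± 0.07. The dimmest Bcl2 probe sets, at the 24.6th and 10.4th percentile, gave 0.27 ± 0.12 (interval -0.0018 to 0.55; limma adjusted p = 0.974) and 0.16 ± 0.09. The last of these, at 2.34, 2.48 and 2.46 with antimicroRNA-140 and 2.55, 2.73 and 2.49 with antimicroRNA-449, was the 1 probe set with all antimicroRNA-449 arrays on the higher side.

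The intervals give the size of a rise that these arrays leave possible. Over the brightest probe sets of the 10 genes the highest upper limit was 0.27 (Cdk6), a 1.21-fold rise, and the lowest was 0.01 (Ccne2), a 1.01-fold rise. Over all 25 probe sets the highest was 0.55, at a dim probe set of Bcl2. Each interval holds for its own probe set, not for all of them jointly. In a fit of all 12 arrays the standard error of E2f5 was wider, with an interval of -0.68 to 0.59, because the siRNA arrays spread more at this gene. The upper limits of the brightest Bcl2 and Met probe sets were 0.42 and 0.35 in that fit.

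**Figure D2:**
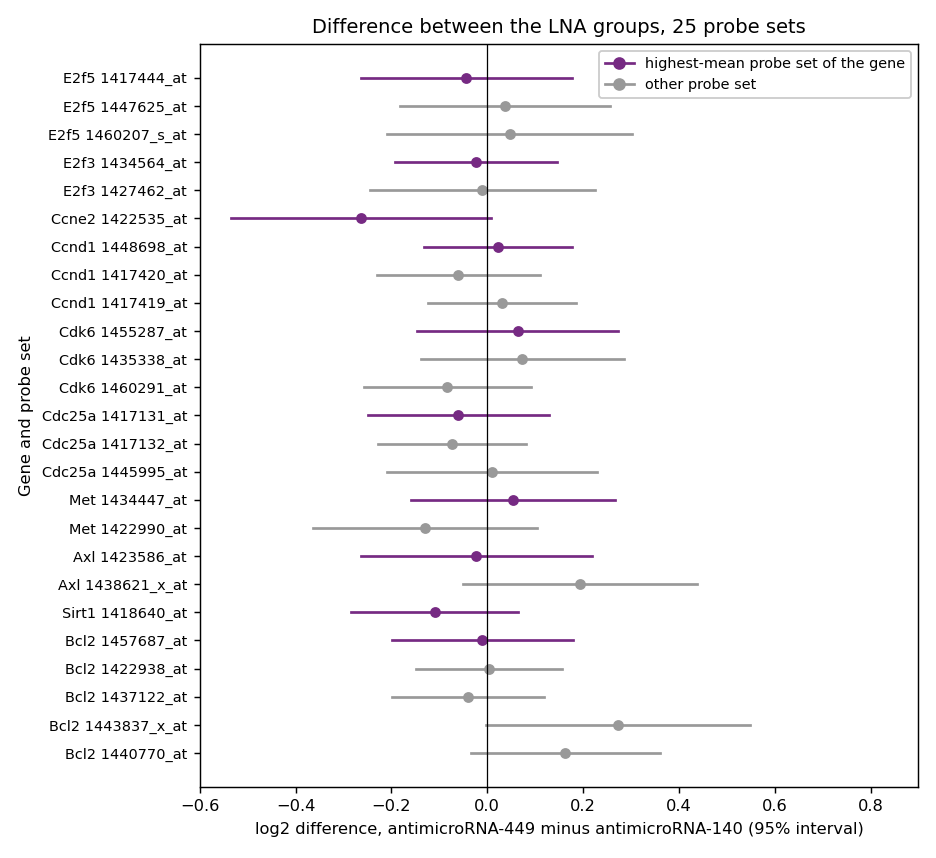
Log2 difference, antimicroRNA-449 minus antimicroRNA-140 (horizontal axis), with its 95% interval from limma, for the 25 probe sets of the 10 genes (n = 3 and 3 arrays). All 25 intervals reach 0, the one of Ccne2 from -0.53 to 0.01 lies furthest to the left, and the points furthest to the right belong to dim probe sets of Bcl2 and Axl.

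None of the genes around the 10 passed the test in the LNA arrays. Lists were written from general knowledge, with earlier results of these data known, and each gene is given by its brightest probe set. Of 34 other reported targets of the family (Cdk4 and E2f1 stand on a further list too), 17 lay higher and 17 lower with antimicroRNA-449 (median -0.0017), and 0 passed the limma test in either direction. The highest were the receptor genes Notch1 (0.20 ± 0.10) and Notch2 (0.17 ± 0.12), and the lowest Tgif2 (-0.10 ± 0.13) and the AP-1 gene Fosl1 (-0.09 ± 0.09). Myc, a transcription factor of growth, gave -0.05 ± 0.07. The Notch1 arrays read 8.21, 8.26 and 8.04 against 8.21, 8.52 and 8.37, so the groups overlapped.

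Of 11 other E2F and pocket protein genes, 0 lay higher and 10 lower (median -0.04), which became 2 higher and 9 lower after a further quantile normalization. The dimerization partners Tfdp2 (-0.17 ± 0.08) and Tfdp1 (-0.14 ± 0.10) were lowest, Rb1, the pocket protein gene, gave -0.10 ± 0.08, E2f1 -0.02 ± 0.08 and E2f4 0.00 ± 0.07. Of 16 other cyclins, kinases and inhibitors of G1 and S phase, 5 lay higher and 11 lower (median -0.05), or 7 and 9 after that normalization. Ccnd2, a D-type cyclin gene, lay at 0.07 ± 0.07 with 10.26, 10.29 and 10.19 against 10.30, 10.31 and 10.33. It was the 1 gene of this list whose antimicroRNA-449 arrays all lay higher. At 2 genes, Ccna2 (-0.08 ± 0.07) and Cdk2 (-0.13 ± 0.07), they all lay lower. Of all 18193 genes, 805 were so placed on the higher side and 599 on the lower. Ccne1 gave -0.01 ± 0.10, Cdk4 -0.02 ± 0.08 and the inhibitor gene Cdkn1a 0.09 ± 0.07. Of 19 measured S phase genes that E2F factors activate, 2 lay higher and 16 lower (median -0.05), or 4 and 15 after that normalization. Cdc6, which loads the replicative helicase, gave -0.21 ± 0.10, and Tyms, which makes thymidylate, -0.24 ± 0.17. The antimicroRNA-449 arrays all lay lower at 1 gene of this list, Rrm2 (-0.08 ± 0.07), and all higher at 0. Without antimicroRNA-449 replicate 1 the medians of these 3 lists were -0.095, -0.0975 and -0.0983. None of their genes passed the limma test, with or without that array.

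Among ligands and relatives of the receptors, Gas6, the ligand of Axl, gave -0.17 ± 0.08 and Hgf, the ligand of Met, -0.12 ± 0.10, with Tyro3 at 0.07 ± 0.08 and Mertk at 0.10 ± 0.08 as the receptors of the Axl family. Of 6 other sirtuins 4 lay higher. Sirt6, a chromatin deacetylase, read 6.08, 6.0 and 6.05 with antimicroRNA-140 and 6.24, 6.23 and 6.31 with antimicroRNA-449. All antimicroRNA-449 arrays lay above the others, as at 805 of all 18193 genes. The Sirt6 difference was 0.22 ± 0.07, with a limma adjusted p of 0.974, so it did not pass. Of 10 measured BCL2 relatives 7 lay higher (median 0.02), with the survival genes Bcl2l1 at 0.02 ± 0.07 and Mcl1 at -0.04 ± 0.07.

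**Figure D3:**
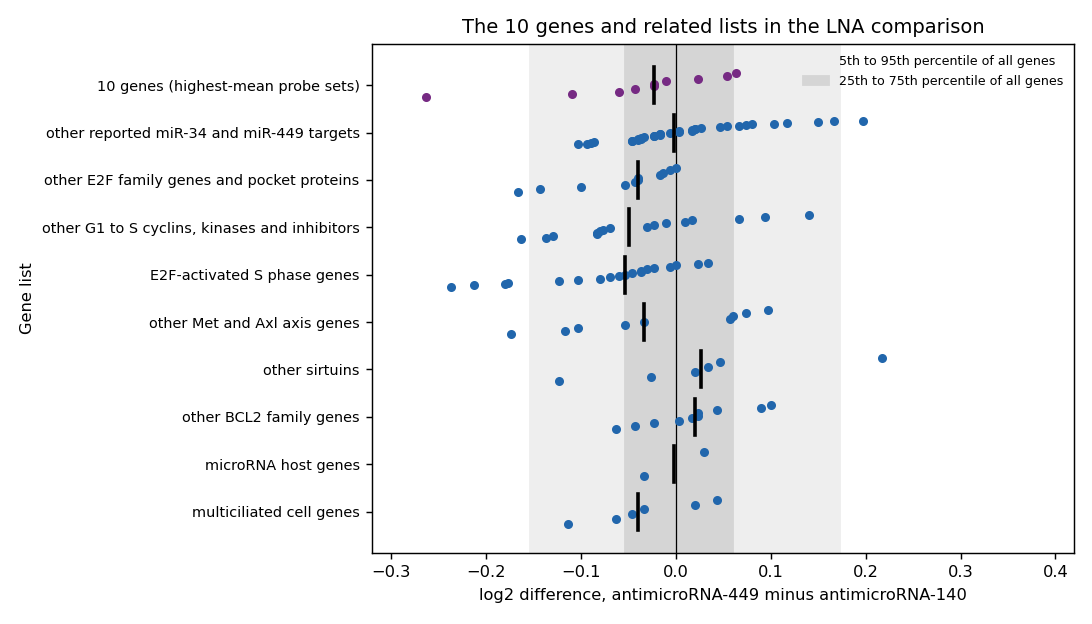
Log2 difference, antimicroRNA-449 minus antimicroRNA-140 (horizontal axis), for the 10 genes and 9 related lists (1 probe set per gene; vertical spread within a list only separates points, black bars are medians). Shaded bands hold the middle 50% and 90% of all 18193 genes, from -0.05 to 0.06 and from -0.15 to 0.17, and the list medians lie within -0.05 to 0.03.

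The siRNA agents are named for miR-140 and miR-96, and that experiment shows how the 10 genes vary among its arrays. limma called 0 of the 25 probe sets between siRNA-140 and siRNA-96 (0% of all probe sets), and 2 of 25 had an unadjusted p under 0.05, against 2.25% of all: the dim Cdk6 probe set and a Cdc25a probe set. Cdk6 lay higher with siRNA-140 at all 3 of its probe sets. The brightest read 7.95, 8.17 and 7.96 under siRNA-140 and 7.86, 7.82 and 7.84 under siRNA-96, so the groups did not overlap, and the difference was 0.19 ± 0.11 (limma adjusted p = 0.997). The dim Cdk6 probe set, at 3.32, 3.60 and 3.40 against 2.91, 3.12 and 3.16, gave 0.38 ± 0.12. Cdc25a read 7.19, 7.29 and 7.14 against 6.97, 7.12 and 6.97 at its brightest probe set, again without overlap, a difference of 0.19 ± 0.11, and its second probe set gave 0.32 ± 0.13. In all, 3 of 25 probe sets had every siRNA-140 array above every siRNA-96 array, where 3.5% of all probe sets did, and 0 had the opposite order, against 2.6% of all.

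Other members varied among the siRNA arrays across the labels. In order of replicate number, E2f5 read 8.48, 8.27 and 7.23 under siRNA-140, and 8.07, 7.23 and 6.93 under siRNA-96. Its SD over these 6 arrays, 0.65, lay at the 99.2nd percentile of all probe sets, against 0.12 and the 49.9th percentile over the LNA arrays. The arrays with high E2f5 were those with high Vnn1, a pantetheinase gene (10.37, 10.51 and 10.04, against 5.27 to 5.66 in the others), and with low Usp18, a gene induced by interferon (3.85, 4.67 and 4.65, against 8.01 to 9.30). Within the array, E2f5 stood at the 90.6th, 88.3rd and 88.0th percentile in the high arrays and at the 80.7th, 80.5th and 78.5th in the low ones. In the LNA arrays it stood at the 90.1st to 91.7th. What sets these siRNA arrays apart was not tested, and it crosses the labels.

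A second E2f5 probe set showed the same arrangement, with 7.84, 7.79 and 6.73 under siRNA-140 and 7.90, 6.93 and 6.67 under siRNA-96. The third did not: it read 7.91, 7.94 and 7.82 against 7.51, 7.85 and 7.86. The arrangement was therefore seen at 2 of the 3 E2f5 probe sets.

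The brighter probe sets of Bcl2 and E2f3 were arranged the other way round. The third Bcl2 probe set read 4.49, 4.51 and 5.29 under siRNA-140 and 4.82, 5.48 and 5.21 under siRNA-96, and the brightest one 5.65, 5.48 and 6.04 against 5.22, 6.20 and 5.74. In both, the 3 arrays with high Vnn1 lay below the other 3, as they did, at 5.14 to 5.38 against 5.39 to 5.57, in the second Bcl2 probe set. The 2 dim Bcl2 probe sets did not separate these arrays. E2f3 read 6.62, 6.42 and 6.96 against 6.22, 6.89 and 6.70 at its brightest probe set, with the same order. Its dimmer probe set had the opposite order within a narrow span, with 5.52, 5.42 and 5.48 in the arrays with high Vnn1 and 5.38 to 5.41 in the others. Met followed E2f5: its dimmer probe set read 5.78, 6.37 and 5.42 against 6.10, 5.33 and 5.27, and its brightest 8.78, 8.44 and 8.29 against 8.59, 8.29 and 8.18. Sirt1 and Ccne2 had the order of the brighter Bcl2 probe sets, within narrower spans. Sirt1 read 7.59 to 7.62 in the arrays with high Vnn1 and 7.76 to 7.86 in the others. Ccne2 read 7.66 to 7.79 against 7.83 to 7.99. Ccnd1 and Axl varied less, with SDs over the siRNA arrays of 0.06 and 0.05 at their brightest probe sets, below the median SD of 0.16 over all probe sets. The share of all probe sets that separates these arrays in the same way was not counted, so these orders only describe the members.

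Some cell type markers moved with the arrangement. Summed, the 11 mesenchymal markers read 15.49 to 15.55 (log2 of the sum) in the arrays with high Vnn1 and 15.74 in each of the others, and the 5 cartilage markers 11.998 to 12.07 against 12.33 to 12.37. Of the mesenchymal markers 6 lay lower in all of the arrays with high Vnn1, 2 lay higher and 3 overlapped. Col3a1, a fibrillar collagen gene, read 11.40, 11.43 and 11.12 there against 12.52, 12.54 and 12.53, and Fn1, the fibronectin gene, 11.65 to 11.86 against 12.24 to 12.30. Of the cartilage markers 3 lay lower, among them Col9a1 at 4.5 to 5.29 against 5.66 to 5.85. The summed endothelial markers lay higher, at 5.83 to 5.96 against 5.67 to 5.73, and the muscle markers lower, at 6.56 to 6.67 against 6.68 to 6.87. Only 1 of the 5 endothelial markers, Tek, lay higher in all of the arrays with high Vnn1. Only 1 of the 5 muscle markers, Actc1, lay lower in all of them. The sums overlapped for the epithelial (6.84 to 7.11 against 6.82 to 7.03), blood (7.84 to 8.09 against 7.77 to 7.88), fat (7.69 to 8.19 against 7.77 to 7.94) and bone markers (4.94 to 5.07 against 4.88 to 5.15). Of the 6 blood markers, 1, Cd14, lay higher in all of the arrays with high Vnn1 and 1, Cd68, lower. Of the 4 measured fat markers, 1, Cebpa, lay lower in all of them. Of the epithelial and bone markers, 0 separated these arrays. The marker genes were set out by array after their values were seen, and their part in the arrangement was not tested. Their counts stand without the share of all probe sets that separates the same arrays, which was not counted. The 18S control mean was 10.47 in siRNA-96 replicate 1, an array with high Vnn1, against 5.40 to 7.86 in the other siRNA arrays, including 5.62 and 6.73 in the other arrays with high Vnn1.

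**Figure D4:**
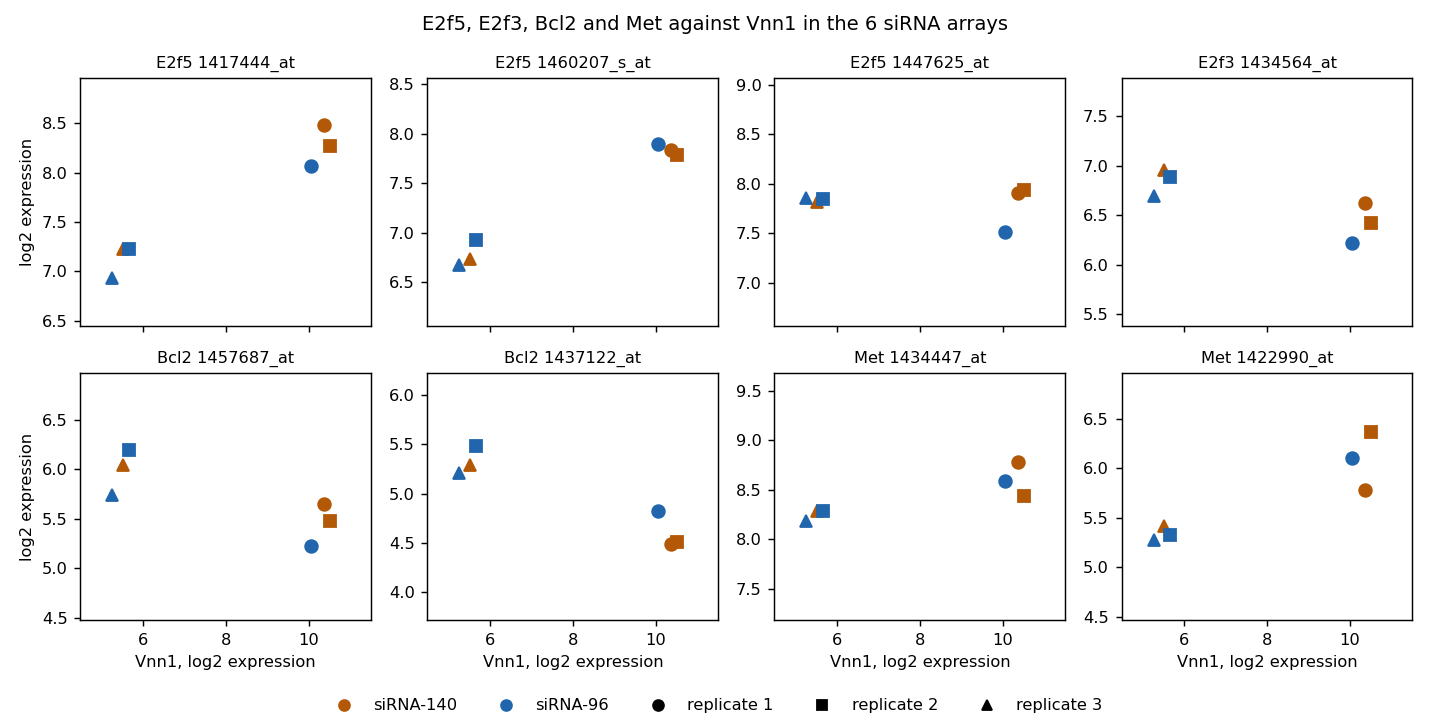
Log2 expression of 8 probe sets of E2f5, E2f3, Bcl2 and Met (vertical axes, equal spans) against that of Vnn1 (horizontal axis) in the 6 siRNA arrays, coloured by group and shaped by replicate. The 3 arrays with Vnn1 above 10 are siRNA-140 replicates 1 and 2 and siRNA-96 replicate 1; E2f5 is high there at 2 of 3 probe sets, Met is high, and the plotted Bcl2 and E2f3 probe sets are low.

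Since siRNA-140 replicate 3 and siRNA-96 replicate 1 lay with the arrays of the other group, the comparison was repeated without them, on 2 against 2 arrays. limma then called 3 of the 25 probe sets, 2 higher and 1 lower with siRNA-140, where 3.87% of all probe sets were called, 2.02% higher and 1.85% lower. E2f5 was higher by 1.30 ± 0.16 (SE; limma adjusted p = 0.00152) and by 1.02 ± 0.15 (adjusted p = 0.00453) at the probe sets that vary, and gave 0.07 ± 0.14 at the other. The third Bcl2 probe set differed by -0.85 ± 0.15 (adjusted p = 0.0120), with -0.41 ± 0.18 at the brightest, which did not pass. The dimmer Met probe set gave 0.78 ± 0.19 (adjusted p = 0.0528), E2f3 -0.28 ± 0.15, Cdk6 0.23 ± 0.15 and Ccnd1 -0.04 ± 0.15. These 4 arrays were chosen with their profiles known, so the calls describe that arrangement and support no effect of siRNA-140. Among the related lists in the same 4 arrays, 6 genes passed, beside the 3.87% of all probe sets called. Of 34 other reported targets, 2 were higher and 1 lower, and of 9 Met and Axl axis genes 1 was higher. Of 11 E2F and pocket protein genes 1 was lower, as was 1 of 6 sirtuins. The other lists held 0. The Notch ligand gene Jag1 (-1.03 ± 0.20), the repressor gene E2f7 (-0.73 ± 0.14) and Sirt2 (-0.62 ± 0.14) were lower. The kinase gene Map2k1 (0.83 ± 0.15), Acsl4 (0.75 ± 0.17) and the adaptor gene Grb2 (0.66 ± 0.14) were higher. These calls, too, only describe the arrangement.

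The genes whose brightest probe set followed each member most closely were ranked by Pearson's r over the 12 arrays, after the mean of each experiment was taken off. For E2f5 they were Plekha3 (r = 0.984) and Shc1 (r = 0.982), for E2f3 Zfp930 (r = 0.981) and Gli3 (r = 0.970), for Bcl2 Slf2 (r = 0.971) and Zfp799 (r = 0.968), and for Met Pdk4 (r = 0.968) and Wdr70 (r = 0.929). For Ccne2 they were Ncapd3 (r = 0.926) and Cenpl (r = 0.920), for Cdk6 Tex261 (r = 0.967) and Ubp1 (r = 0.942), for Ccnd1 Prkcz (r = 0.917) and Nkd1 (r = 0.910), for Cdc25a Synrg (r = 0.910) and Usp14 (r = 0.890), for Sirt1 Gper1 (r = 0.901) and Hnrnpa2b1 (r = 0.897), and for Axl Ggps1 (r = 0.892) and Mrc2 (r = 0.886). The points share arrays and normalization, the siRNA arrays carry most of the spread of E2f5, E2f3, Bcl2 and Met, and each r is the highest or next highest over all named genes, so these values only describe the arrays.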

How the data were processed

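RNA from 12 arrays (4 groups of 3) was labelled with biotin by the Affymetrix protocol, per the labels' protocols. For each probe set the authors deposited a log2 value, and RMA is the method that the submitters' processing notes name; its version, the probe set definitions and whether the experiments were normalized together are not given in the sources used here. RMA pulls arrays that are normalized together to a shared distribution, which removes a global shift among them. Array medians still differed between the LNA and siRNA arrays. Of 45101 probe sets, 64 array controls were left out. The platform annotation gave 34945 of the 45037 tested 1 symbol, 932 several and 9160 none; 34741 of the first matched a gene ID of RefSeq's GRCm38.p6 table. A gene's brightest probe set is the one with the highest mean over all arrays.

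Each experiment was fitted on its 6 arrays with limma 3.58.1 in R 4.3.3 (lmFit, eBayes, no filter on level, Benjamini-Hochberg adjustment over 45037 probe sets, 95% intervals). The fit was tested on simulated data with the replicate spread of each experiment and independent noise. Changes were added together, to probe sets above the median level only, 50 of them by 0.5 and 100 by 1 in either direction. The rates therefore do not cover dim probe sets, a setting with few changes, or an arrangement shared among arrays. For the LNA arrays the fit called 48% of added log2 changes of 0.5 and 92% of those of 1. For the siRNA arrays it called 2% and 45%, with 6 false calls in each experiment. A count of 0 calls therefore leaves room for changes of these sizes, above all in the siRNA arrays. Percentiles are ranks within an array. Brightness differs between probes, so levels were not set against each other between genes. The number of arrays limits the precision. The named genes were all members; from each list up to 2 genes with the highest and 2 with the lowest difference between the LNA groups, with some fixed genes; and the 2 genes most like each member. The members and lists were chosen with earlier results of these data known. Some genes that the rule names are covered by the counts of their list alone. Alternatives and their effect are given after the results. Sequences came from RefSeq; 6 of the microRNA names looked up were found.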

Additional observations from a re-analysis of the deposited data

How the results depend on the processing

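Between antimicroRNA-449 and antimicroRNA-140, 0 probe sets were called, members or not, in the 6-array limma fit and under each alternative: all 12 arrays, a further quantile normalization, median centring, only probe sets at or above the median level, trend with robust variances, array weights, 1 probe set per gene, and each array left out in turn (0 to 0). The same held between siRNA-140 and siRNA-96, except in the fit of 4 arrays, which called 1743 probe sets and 3 of the members; that fit holds fewer arrays, chosen for their profile. At an unadjusted p under 0.05 the counts were 2148 for the LNA arrays and 1014 for the siRNA arrays. With the replicate number as a block 0 probe sets and 0 members were called in either comparison; the numbers do not pair the arrays, since deviations of same-numbered arrays correlated at -0.01, 0.10 and -0.03 in the LNA groups and at 0.41, -0.24 and 0.44 in the siRNA groups, and 2 of 6 arrays in each correlated best with their own number. Of 340 alternative values of the member differences in the LNA arrays, all lay within 1 SD between replicates of the first value. Among them, 32 changed sign or became 0. Of 365 such values in the siRNA arrays, 357 lay within 1 SD and 26 changed sign or became 0. The 8 that moved further came from the fit of 4 arrays. Many of these values could not have moved by 1 SD. Alternatives that change only the error or the probe sets tested return the same difference, and leaving out 1 array of 3 cannot shift it that far. The counts are therefore a weak check. Dim probe sets, with values near the floor, limit what can be said of Axl and Bcl2 beyond their brighter probe sets.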
